A study of Homo sapiens with 8 samples.

Results

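The histone cluster genes were 64 of the 21357 genes named on the array, and 71 of its 54675 probe sets read them. They were taken by annotation alone: every probe set whose platform annotation holds a current symbol of the H1-1 to H1-6, H2AC, H2BC, H3C or H4C series or an older symbol of the HIST1H to HIST4H series. These symbols name mainly replication-dependent histone genes, and the pseudogenes H2AC5P and H4C10P are among them and are counted as genes here. Of the 71 probe sets, 51 named a single gene (45 genes) and 20 named several genes, and by class 7 were for H1, 16 for H2A, 20 for H2B, 10 for H3, 16 for H4 and 2 for H3 genes and H2AC7 together.

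RNA of 293T cells, a human embryonic kidney line, was measured on 8 one-colour Affymetrix arrays in 4 groups of 2 arrays. Cells had been treated for 10 h with 5-NA, CBU-028 or EerI, each at 10 µM, and control cells were labelled only as control, without a stated solvent. EerI (Eeyarestatin I) blocks the degradation of proteins of the endoplasmic reticulum and carries a nitrofuran-containing group joined to an aromatic domain. 5-NA (5-nitrofuryl-acrolein) is the nitrofuran-containing group without that domain, and CBU-028 carries the nitrofuran-containing group with another benzene-containing group in the place of the aromatic domain. All groups were the same cell line at 1 dose and 1 time. The sources speak of duplicates, and nothing says that the 2 arrays of a group came from separate cultures, so p-values measure the spread between these arrays, which may be technical. In the titles of the 5-NA arrays stands the number of an experiment that the study's compound list pairs with another compound; their group came from the remaining labels.

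Histones package DNA. H2A, H2B, H3 and H4 form the protein core of the nucleosome and H1 binds the linker DNA between nucleosomes. Most of their genes lie in clusters, have no introns and are transcribed mainly in S phase, when new DNA has to be packaged. Their mRNAs mostly end in a conserved stem loop that SLBP binds and that is cut with the help of the U7 small nuclear RNP, in place of a poly(A) tail. Cluster genes such as H2AC6, H2BC5, H2BC12 and H2BC21 are also known to give polyadenylated transcripts. The standard labelling of these arrays primes on poly(A), so a level here is that of the transcripts this labelling takes up and is not the amount of all histone mRNA.

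Many of these genes were higher with 5-NA, so the 250 bases before the start of transcription are shown for genes that the results turn on, each 5' to 3' on its own strand, from RefSeq (GRCh38.p14). Capitals mark the octamer ATTTGCAT or its reverse complement ATGCAAAT, which Oct factors bind and which H2B promoters are known for, the CCAAT element in either direction (CCAAT or ATTGG), and TATAAA in either direction (TATAAA or TTTATA), where adjoining letters in capitals can hold overlapping matches. H2AC6, H2AC17, H2BC12, H2BC9 and H2BC21 have the octamer, which begins at position -130 from the start in H2AC6, -98 in H2AC17, -49 in H2BC9 and -46 in H2BC12 and H2BC21. H2BC5 has CCAAT and TATAAA without the octamer, H2AC25 has CCAAT alone, and H4C8 has none of the motifs.
H2AC6 (chr6:26123922-26124171, plus strand): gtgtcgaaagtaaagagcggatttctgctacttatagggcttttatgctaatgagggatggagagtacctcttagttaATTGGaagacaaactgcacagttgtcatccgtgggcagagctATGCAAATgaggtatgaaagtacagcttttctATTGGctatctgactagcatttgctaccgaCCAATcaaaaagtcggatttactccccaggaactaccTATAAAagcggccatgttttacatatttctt
H2AC17 (chr6:27893186-27893435, minus strand): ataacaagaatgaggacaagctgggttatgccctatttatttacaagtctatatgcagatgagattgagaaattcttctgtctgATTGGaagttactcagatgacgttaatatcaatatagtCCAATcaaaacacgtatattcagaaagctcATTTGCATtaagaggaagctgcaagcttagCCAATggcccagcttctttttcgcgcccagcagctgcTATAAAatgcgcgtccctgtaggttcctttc
H2BC12 (chr6:27146859-27147108, minus strand): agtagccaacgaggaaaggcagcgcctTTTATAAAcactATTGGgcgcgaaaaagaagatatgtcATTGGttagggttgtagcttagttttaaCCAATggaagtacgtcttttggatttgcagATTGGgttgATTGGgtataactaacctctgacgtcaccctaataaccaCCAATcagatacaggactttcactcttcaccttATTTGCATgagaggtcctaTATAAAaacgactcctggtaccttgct
H2BC9 (chr6:26251364-26251613, plus strand): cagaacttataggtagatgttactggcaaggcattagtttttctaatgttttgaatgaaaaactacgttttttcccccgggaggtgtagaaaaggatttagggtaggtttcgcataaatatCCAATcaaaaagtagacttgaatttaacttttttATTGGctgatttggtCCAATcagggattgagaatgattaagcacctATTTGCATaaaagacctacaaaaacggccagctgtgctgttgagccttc
H2BC21 (chr1:149886683-149886932, minus strand): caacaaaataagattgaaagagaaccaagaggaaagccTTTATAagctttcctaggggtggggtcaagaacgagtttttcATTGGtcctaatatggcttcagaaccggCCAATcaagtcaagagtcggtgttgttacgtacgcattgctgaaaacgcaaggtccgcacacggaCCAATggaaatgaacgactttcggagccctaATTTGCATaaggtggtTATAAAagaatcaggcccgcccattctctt
H2BC5 (chr6:26157871-26158120, plus strand): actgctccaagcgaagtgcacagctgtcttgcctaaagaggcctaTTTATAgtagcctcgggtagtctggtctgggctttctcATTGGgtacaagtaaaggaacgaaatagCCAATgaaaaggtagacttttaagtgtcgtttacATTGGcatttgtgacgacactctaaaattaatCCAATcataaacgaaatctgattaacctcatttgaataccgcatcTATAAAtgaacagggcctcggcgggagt
H2AC25 (chr1:228457874-228458123, minus strand): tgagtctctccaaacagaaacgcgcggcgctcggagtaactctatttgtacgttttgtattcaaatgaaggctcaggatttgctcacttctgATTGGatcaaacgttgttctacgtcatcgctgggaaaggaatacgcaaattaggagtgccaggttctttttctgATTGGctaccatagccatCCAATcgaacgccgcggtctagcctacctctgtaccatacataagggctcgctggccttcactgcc
H4C8 (chr6:26285535-26285784, minus strand): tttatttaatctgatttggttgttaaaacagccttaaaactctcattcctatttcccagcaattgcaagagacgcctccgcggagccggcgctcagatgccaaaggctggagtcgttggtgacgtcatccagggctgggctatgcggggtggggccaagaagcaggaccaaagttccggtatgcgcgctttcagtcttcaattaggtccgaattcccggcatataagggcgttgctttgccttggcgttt

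Promoter windows of 250 bases before to 50 after a start were held for 56 of the 64 genes, 60 windows in all since some genes have more than 1 start. The octamer lay in 38.3% of the windows of histone cluster genes, against 1.77% of all 35116 windows of the table. CCAAT lay in 83.3%, against 34.6% of all windows, and TATAAA in 65.0%, against 11.5%. The octamer was a feature of the H2A and H2B genes: 8 of 13 H2A windows and 14 of 18 H2B windows held it, and 1 of 10 H3 windows (that of an H3C4 start which H2AC7 shares), 0 of 6 H1 and 0 of 13 H4 windows. Among windows of genes that a probe set names alone, 14 of 24 held it where the gene was called higher with 5-NA and 3 of 19 where it was not. Histone class moves with the octamer too, and this split was not tested. Some of these probe sets can also cross-match near-identical genes. The windows in these counts are not all separate. Genes that start close together on opposite strands can share an octamer, as H2AC6 and H2BC4 do, and it then counts for both. H2BC12 enters with more than 1 overlapping window. A match describes the letters in these windows and is not a measured binding site.

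The first comparison asked how 5-NA changed these RNAs. With 5-NA, 35 of the 71 probe sets were higher than in control and none was lower at an adjusted p under 0.05 (limma with Benjamini-Hochberg adjustment across the whole array), against 7.32% of all probe sets higher and 7.9% lower. At least 2-fold higher were 19 of the 71, against 0.483% of all probe sets. The median log2 fold change of the 71 was 0.36, that of all probe sets -0.01. Both 5-NA arrays lay above both control arrays in 51 of the 71, against 27.6% of all probe sets, and below them in 3, against 30.8%. The median log2 intensity of the 71 was 6.92 and 6.86 with 5-NA, 6.63 and 6.53 with CBU-028, 6.31 and 6.42 with EerI, and 6.36 and 6.35 in control, so the 5-NA and CBU-028 arrays stood above the rest. In RNA of whole cultures, a change in how many cells transcribe a gene and a change in RNA per cell cannot be told apart. The classes differed in their counts: 16 of 20 H2B probe sets, 8 of 16 H2A, 5 of 10 H3, 3 of 16 H4, 1 of 7 H1 and both mixed probe sets were called higher, with medians of 0.98 for H2B, 0.50 for H2A, 0.32 for H3, 0.20 for H4 and 0.00 for H1. No test was made between classes, since their probe sets share transcripts.

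Fewer of them were called with CBU-028, and none with EerI. With CBU-028, 21 of the 71 were higher than in control, against 4.4% of all probe sets, and 1 was lower, against 5.27%. The higher ones were 10 of 20 H2B, 4 of 16 H2A, 3 of 16 H4, 1 of 10 H3, 1 of 7 H1 and both mixed probe sets. Of the 71, 2 were at least 2-fold higher, against 0.254%. The count of higher probe sets fell to 8 when either control array was left out, and 7 of the 22 calls held without each of the 8 arrays in turn. With EerI, 0 of the 71 were called in either direction, against 0.357% of all probe sets higher and 0.17% lower, and an unmoderated analysis of variance, the kind of test the methods name, also called 0. At an unadjusted p under 0.05, limma gave 1 probe set higher and 2 lower with EerI, against 4.9% and 5.0% of all probe sets. Both arrays of the compound lay above both control arrays in 38 of the 71 with CBU-028 (24.9% of all probe sets) and in 9 with EerI (24.6%), and below them in 6 with CBU-028 (24.8%) and in 15 with EerI (22.6%). Median changes were 0.18 with CBU-028 and -0.02 with EerI on the log2 scale, and all 71 of the 95% intervals for EerI against control lay within 1 log2 unit of 0.

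**Figure D1:**
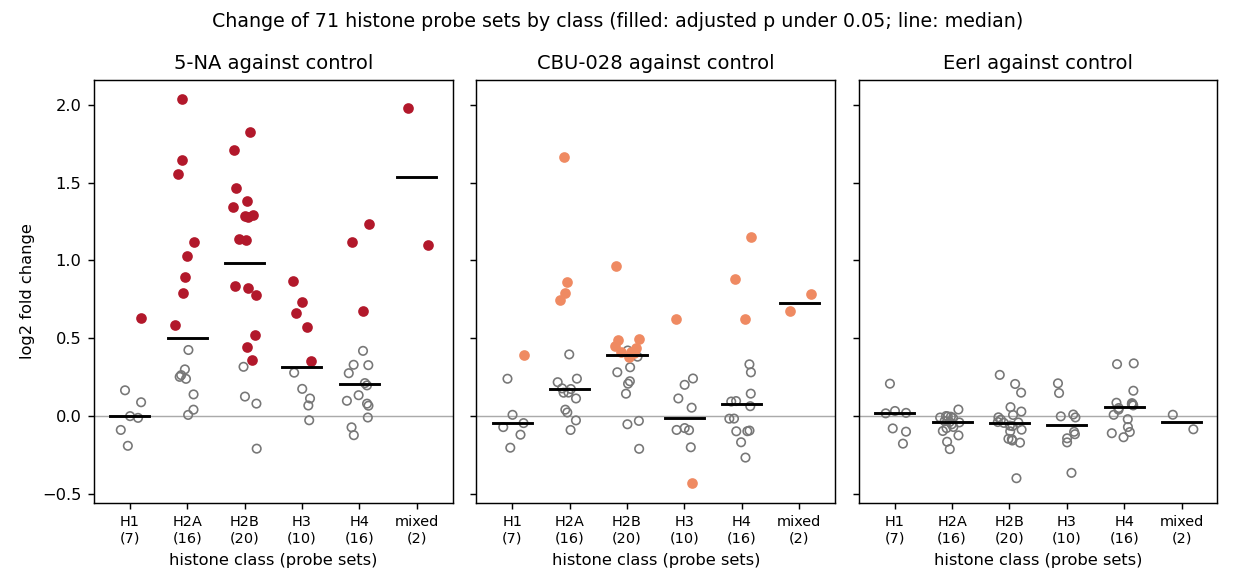
Log2 fold change (vertical axis) of each of the 71 histone probe sets against control, by histone class, for 5-NA, CBU-028 and EerI. Filled points passed an adjusted p of 0.05, open points did not, and black lines are medians: with 5-NA the H2B median is 0.98, and the 7 H1 probe sets have 1 filled point.

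H2A is the core histone that carries the monoubiquitin mark of silenced chromatin. H2AC6, on chromosome 6, had log2 intensities of 9.29 and 8.84 with 5-NA, 8.69 and 8.69 with CBU-028, 7.01 and 6.89 with EerI, and 7.21 and 6.84 in control. All 5-NA and CBU-028 arrays lay above all EerI and control arrays. The log2 fold change against control was 2.04 ± 0.16 (SE, 4.11-fold, adjusted p = 0.000187) with 5-NA, 1.66 ± 0.16 (3.17-fold, adjusted p = 0.000553) with CBU-028 and -0.08 with EerI (95% interval -0.43 to 0.28). These were the largest changes among the 71 probe sets with 5-NA and with CBU-028.

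H2AC17 had 8.01 and 7.68 with 5-NA, 6.96 and 6.98 with CBU-028, 6.62 and 6.76 with EerI, and 6.79 and 6.66 in control. The 5-NA arrays lay above all others, and the CBU-028 arrays lay above the rest by less: the log2 fold change was 1.12 with 5-NA (adjusted p = 0.000588) and 0.24 with CBU-028 (adjusted p = 0.256). H2AC25 is an H2A gene of chromosome 1. On 1 of its 2 probe sets the values were 10.88 and 11.20 with 5-NA, 10.96 and 11.05 with CBU-028, 10.03 and 10.18 with EerI, and 10.11 and 10.18 in control. The 5-NA and CBU-028 arrays overlapped each other and lay above the rest, with log2 fold changes of 0.89 and 0.86 (adjusted p = 0.00143 with 5-NA and 0.00248 with CBU-028). A second probe set of H2AC25 was not called, at 0.25 with 5-NA and 0.18 with CBU-028.

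H2AC8 had 6.76 and 6.73 with 5-NA, 5.86 and 6.38 with CBU-028, 5.75 and 5.58 with EerI, and 5.87 and 5.58 in control. Its log2 fold change was 1.03 with 5-NA (adjusted p = 0.00372), and the 2 CBU-028 arrays differed by more than the change with CBU-028 (0.40, not called). H2AC18 and H2AC19, near-identical genes of chromosome 1 that share their probe sets, had 12.06 and 12.16 with 5-NA, 11.19 and 11.31 with CBU-028, 10.18 and 10.41 with EerI, and 10.54 and 10.38 in control on 1 of 3 probe sets, an _s_at. The 4 groups followed in steps: 1.65 with 5-NA and 0.79 with CBU-028 were called, and EerI overlapped control. A second probe set gave 1.55 and 0.74 for these compounds, the CBU-028 call being lost without control replicate 2, and the third gave 0.24 and 0.15, neither called. Of the 16 H2A probe sets, H2AC14 (0.58) and H2AC16 (0.79) were also called with 5-NA, the H2AC14 call being lost without control replicate 1 (adjusted p = 0.0544). H2AC4 (0.26, 6.73 to 7.19 over the 8 arrays), the pseudogene H2AC5P (0.04, 6.69 to 7.07), 2 probe sets of H2AC15 (0.14 and 0.01) and 2 that read 6 H2A genes together (0.42 and 0.30) were not called.

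H2B pairs with H2A in the nucleosome. H2BC5 had 9.86 and 9.94 with 5-NA, 9.22 and 9.09 with CBU-028, 8.0 and 8.37 with EerI, and 8.28 and 8.11 in control. The 5-NA arrays lay above the CBU-028 arrays and those above the rest, with log2 fold changes of 1.71 with 5-NA (3.27-fold, adjusted p = 0.000163) and 0.96 with CBU-028 (1.95-fold, adjusted p = 0.00228). A second H2BC5 probe set gave 1.28 with 5-NA and 0.41 with CBU-028, both called, the CBU-028 call being lost without either control array (adjusted p up to 0.0992).

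H2BC12 had 13.02 and 13.12 with 5-NA, 12.35 and 12.34 with CBU-028, 11.85 and 11.92 with EerI, and 11.94 and 11.92 in control. The 5-NA arrays lay above the CBU-028 arrays and those above the rest, and the log2 fold changes were 1.14 with 5-NA (adjusted p = 0.000116) and 0.41 with CBU-028 (adjusted p = 0.0128, and 0.102 at the highest when 1 control array was left out). H2BC9 had 9.29 and 9.30 with 5-NA, 8.29 and 8.30 with CBU-028, 7.64 and 7.89 with EerI, and 7.92 and 7.90 in control. The 5-NA arrays were again highest, then CBU-028, with both EerI arrays just below the control arrays. The log2 fold change was 1.38 for 5-NA and 0.38 for CBU-028, and the CBU-028 call was lost when any of 6 arrays was left out.

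H2BC6 and H2BC12L, an H2B gene on chromosome 21 outside the clusters, are read by cross-matching _x_at probe sets. So are H2BC9 and H2BC5 (on both of its probe sets), so the similar steps of these genes may repeat a shared signal. H2BC6 had 11.08 and 11.0 with 5-NA, 10.13 and 10.24 with CBU-028, 9.66 and 9.75 with EerI, and 9.76 and 9.73 in control. H2BC12L had 12.40 and 12.40 with 5-NA, 11.43 and 11.41 with CBU-028, 10.82 and 11.0 with EerI, and 10.95 and 10.91 in control. Both had the 5-NA arrays above the CBU-028 arrays and overlapping EerI and control arrays, with log2 fold changes of 1.29 and 1.47 with 5-NA and 0.44 and 0.49 with CBU-028. Both CBU-028 calls were lost without either control array.

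H2BC21 lies on chromosome 1. Its values were 7.01 and 7.10 with 5-NA, 7.11 and 7.09 with CBU-028, 6.30 and 6.29 with EerI, and 6.57 and 6.82 in control. The EerI arrays lay below and the 5-NA and CBU-028 arrays above the control arrays. The log2 fold changes against control were 0.36 with 5-NA (adjusted p = 0.0354), 0.40 with CBU-028 (adjusted p = 0.0314) and -0.40 with EerI (adjusted p = 0.153, not called). Both calls were lost without control replicate 1 or either EerI array, and in all the 5-NA call was lost without any of 5 arrays (adjusted p up to 0.281) and the CBU-028 call without any of 4 (up to 0.256). Against EerI, H2BC21 was higher by 0.76 with 5-NA, a call that held without each array in turn, and by 0.80 with CBU-028, a call lost without either EerI array.

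A probe set shared by H2BC8 and H2BC11 had 8.54 and 8.35 with 5-NA, 7.02 and 7.04 with CBU-028, 6.77 and 6.87 with EerI, and 6.53 and 6.71 in control. The 5-NA arrays lay above all others. Its log2 fold change of 1.83 with 5-NA (3.55-fold) compared with 0.41 for CBU-028, a call lost without any of 6 arrays (adjusted p up to 0.246). A second probe set of this gene pair gave 1.13 with 5-NA and 0.21 with CBU-028, the second not called. Also called with 5-NA were H2BC3 (0.44), H2BC4 (0.52), H2BC11 (0.78), H2BC15 (0.83) and H2BC17 (0.82). The calls of H2BC3 and H2BC4 were lost without either 5-NA or either control array (adjusted p up to 0.091 for H2BC3 and 0.0855 for H2BC4). The 4 H2B probe sets not called were those of H2BC13 (0.08), H2BC14 (0.13) and H2BC1 (-0.21), the last a testis histone, and 1 of the 3 read by H2BC4, H2BC6, H2BC7, H2BC8 and H2BC10 together (0.32). The other 2 of these 3 gave 1.34 and 1.28.

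**Figure D2:**
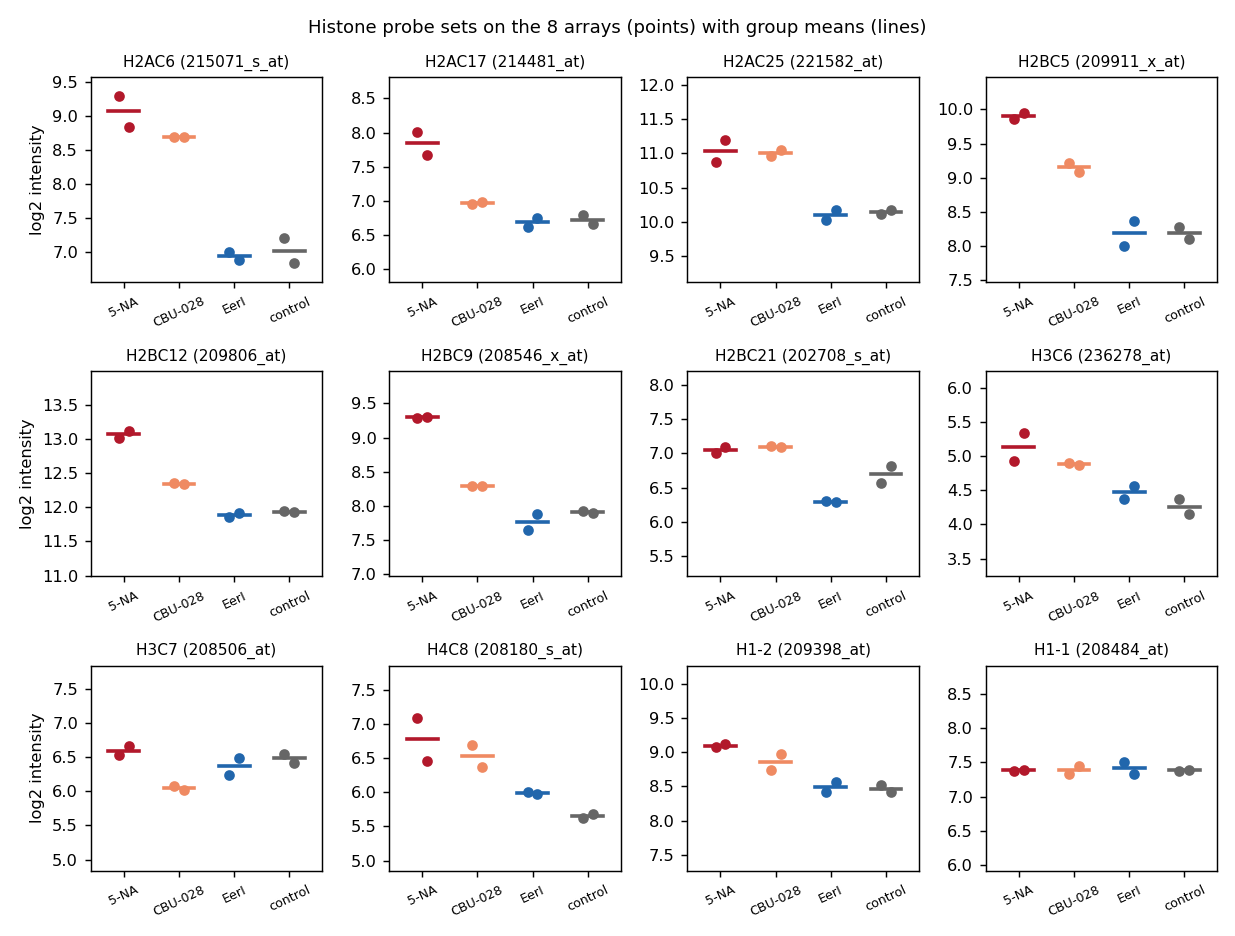
Log2 intensity (vertical axis) of 12 histone probe sets on each of the 8 arrays, with 5-NA left, then CBU-028, EerI and control. Points are arrays and lines are means of the 2 arrays, each panel spans 3 log2 units, and H2BC12 stands at 13.02 and 13.12 with 5-NA, above both control arrays at 11.94 and 11.92.

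H2A and H2B genes often stand head to head with a short stretch between their starts. Their changes with 5-NA are given side by side, without a test of the difference. H2AC6 (2.04 with 5-NA) starts 246 bases from H2BC4 (0.52). H2AC17 (1.12) starts 240 bases from H2BC17 (0.82), and H2AC14 (0.58) starts 245 bases from H2BC14 (0.13, not called). H2BC15 (0.83) starts 194 bases from H2AC15, whose 2 probe sets were not called.

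H3 and H4 form the tetramer at the heart of the nucleosome. H3C6 had 4.92 and 5.33 with 5-NA, 4.90 and 4.86 with CBU-028, 4.37 and 4.56 with EerI, and 4.37 and 4.14 in control. At such low intensities arrays compress fold changes. The log2 fold changes of 0.87 with 5-NA and 0.62 with CBU-028 were called (adjusted p = 0.0038 and 0.0242), the second lost without CBU-028 replicate 1 or either control array (adjusted p up to 0.171). A second H3C6 probe set had 0.07 and -0.20, neither called.

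H3C7 was the only one of the 71 called lower in any comparison with control. Its values were 6.52 and 6.66 with 5-NA, 6.08 and 6.01 with CBU-028, 6.24 and 6.49 with EerI, and 6.55 and 6.41 in control. The CBU-028 arrays lay below all others, with a log2 fold change of -0.43 (adjusted p = 0.0346). That call was lost when any of the 5-NA, CBU-028 or control arrays was left out, with adjusted p up to 0.242.

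H3C2 had 6.48 and 6.37 with 5-NA, 5.88 and 5.90 with CBU-028, 5.23 and 5.82 with EerI, and 5.71 and 5.67 in control. H3C1 had 5.89 and 5.63 with 5-NA, 5.13 and 5.29 with CBU-028, 4.98 and 5.21 with EerI, and 5.23 and 4.97 in control. The 5-NA arrays lay above all others for both genes, while the EerI arrays spread around control. H3C1 (0.66), H3C2 (0.73) and H3C11 (0.36) were called higher with 5-NA, each lost when any of 2 to 5 arrays was left out, and were not called with CBU-028 (0.11, 0.20 and 0.24). A probe set of 10 H3 genes gave 0.57 with 5-NA, lost without 5-NA replicate 1 or control replicate 2, and a second of the same genes gave -0.03. H3C8 had 7.52 and 7.49 with 5-NA, 7.01 and 7.26 with CBU-028, 7.37 and 7.38 with EerI, and 7.13 and 7.33 in control, and was not called. The probe set that reads 10 H3 genes and H2AC7 together had 7.85 and 7.70 with 5-NA, 6.50 and 6.43 with CBU-028, 5.82 and 5.78 with EerI, and 5.74 and 5.84 in control. Its log2 fold changes of 1.98 with 5-NA (3.94-fold, adjusted p = 1.67e-05, the smallest of the 71) and 0.67 with CBU-028 were called. A probe set of H3C4 and H2AC7 gave 1.10 and 0.78, both called without each array in turn. Which of the genes these 2 probe sets read cannot be told from the arrays.

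Among H4 genes, 1 probe set annotated to 14 H4 genes and both of H4C8 alone were called. The shared probe set had 8.04 and 7.82 with 5-NA, 7.83 and 7.85 with CBU-028, 6.90 and 7.17 with EerI, and 6.71 and 6.68 in control. Its log2 fold changes were 1.23 with 5-NA (2.35-fold), 1.15 with CBU-028 (2.21-fold) and 0.34 with EerI (95% interval 0.09 to 0.59, adjusted p = 0.311, not called). All 6 arrays of treated cells lay above control, the 5-NA and CBU-028 arrays overlapping each other. H4C8 had 7.09 and 6.46 with 5-NA, 6.69 and 6.37 with CBU-028, 6.0 and 5.97 with EerI, and 5.62 and 5.69 in control. The 5-NA duplicates lay 0.63 apart, and the log2 fold changes were 1.12 with 5-NA and 0.88 with CBU-028, the second lost without CBU-028 replicate 1 or either control array. A second H4C8 probe set gave 0.67 and 0.62. Its 5-NA call was lost without 5-NA replicate 1 or control replicate 1 (adjusted p up to 0.148), and its CBU-028 call was lost without any of 7 arrays (adjusted p up to 0.255).

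The other 13 H4 probe sets were not called with 5-NA or CBU-028. Among them was a second probe set of the same 14 H4 genes, with 10.17 and 10.62 with 5-NA, 10.55 and 10.68 with CBU-028, 10.28 and 10.71 with EerI, and 10.40 and 10.27 in control. The 5-NA and EerI arrays overlapped control and both CBU-028 arrays lay above it, with changes of 0.07 with 5-NA and 0.28 with CBU-028. H4C9 (0.08, 7.75 to 8.0 over the 8 arrays) and H4C11 (0.28, 7.76 to 8.24) were not called with 5-NA.

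Of the 7 probe sets for H1 linker histones, 1 was called. H1-2, a linker histone that is also made outside S phase, had 9.08 and 9.12 with 5-NA, 8.75 and 8.98 with CBU-028, 8.42 and 8.56 with EerI, and 8.52 and 8.42 in control. Its log2 fold change was 0.63 with 5-NA (adjusted p = 0.00372), called without each array in turn, and 0.39 with CBU-028 (adjusted p = 0.0404), lost when any of 7 arrays was left out (adjusted p up to 0.235). H1-1 had 7.38 and 7.39 with 5-NA, 7.33 and 7.45 with CBU-028, 7.5 and 7.33 with EerI, and 7.37 and 7.4 in control, so its groups overlapped. H1-3 (-0.09), H1-4 (0.09), H1-5 (0.17) and both probe sets of H1-6, the testis linker histone (-0.01 and -0.19), were not called with 5-NA either.

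The 3 compounds were compared directly with each other, at the same dose and time. The same dose need not be equally toxic. In another cell line, the paper reports, the nitrofuran-containing group alone was toxic at a lower dose than EerI. Each compound was given at 1 dose here, so structure and effective dose were not separated, and the part of toxicity was not tested. For 5-NA against EerI, 38 of the 71 probe sets were higher and none lower, against 6.93% of all probe sets higher and 7.08% lower. With CBU-028 against EerI, 16 were higher, against 1.28%, and none lower, against 1.67%. With 5-NA against CBU-028, 22 were higher, against 5.51%, and none lower, against 5.09%. At least 2-fold higher were 17 for 5-NA against EerI (0.358% of all probe sets), 1 for CBU-028 against EerI (0.0329%) and 3 for 5-NA against CBU-028 (0.212%). Adjusted over all 3 pairs together, 36 were higher for 5-NA against EerI (6.04% of all probe sets), 20 for CBU-028 against EerI (2.32%) and 22 for 5-NA against CBU-028 (5.25%). The 16 calls of CBU-028 against EerI all depended on single arrays: 0 were left without EerI replicate 1, 2 without EerI replicate 2 and 9 without either control array. Leaving out an array took 5-NA against EerI to between 26 and 40 and 5-NA against CBU-028 to between 16 and 27.

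Of the 22 probe sets higher with 5-NA than with CBU-028, 12 were for H2B, 5 for H2A, 3 for H3, 1 for H4 and 1 mixed. The difference was 1.41 (95% interval 1.19 to 1.64) for the probe set of H2BC8 and H2BC11, 1.0 (0.79 to 1.21) for H2BC9, 0.98 (0.79 to 1.17) for H2BC12L and 0.73 (0.55 to 0.91) for H2BC12. In H2A it was 0.88 (0.62 to 1.14) for H2AC17 and 0.86 (0.62 to 1.10) for the first _s_at probe set of H2AC18 and H2AC19. For the probe set of 10 H3 genes and H2AC7 it was 1.30. Other genes showed no called difference between the compounds: 0.03 (-0.22 to 0.29) for H2AC25, -0.04 (-0.26 to 0.17) for H2BC21, 0.09 (-0.16 to 0.33) for the probe set of 14 H4 genes and 0.24 (-0.17 to 0.65) for H4C8. For H2AC6 it was 0.37 (0.02 to 0.73), with an adjusted p of 0.185. H3C7 was higher with 5-NA than with CBU-028 by 0.55 (0.31 to 0.78, adjusted p = 0.0128), a call lost without 5-NA replicate 2, and H4C4 by 0.69 (adjusted p = 0.0148), lost without 5-NA replicate 2 or CBU-028 replicate 1.

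**Figure D3:**
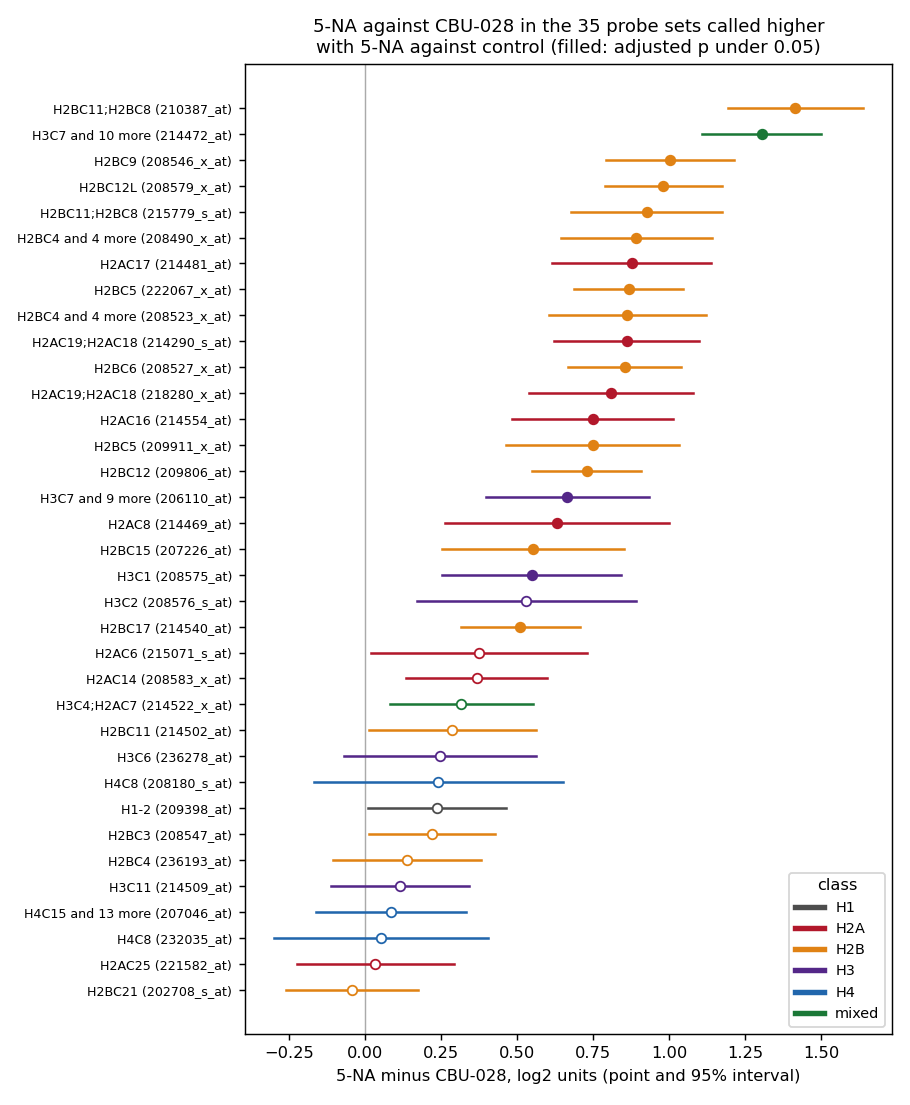
Difference between 5-NA and CBU-028 in log2 units (horizontal axis, point with 95% interval) for the 35 histone probe sets called higher with 5-NA against control, a choice that favours values above 0; colours give the class. Filled points passed an adjusted p of 0.05; the values run between -0.04 for H2BC21 and 1.41 for the probe set of H2BC8 and H2BC11.

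Within the histone probe sets, the changes differed by type of probe set and by level. Of the 48 plain _at probe sets, 19 were called higher with 5-NA (median 0.24) and 9 with CBU-028 (median 0.09), against the background shares given above. This type is designed to read 1 transcript, but the 48 name 56 genes. Some of them are annotated to several genes, such as the first probe set of H2BC8 and H2BC11. Of the 22 _s_at and _x_at probe sets, which can read several transcripts or cross-match near-identical genes, 16 were called higher with 5-NA (median 1.13) and 12 with CBU-028 (median 0.41). The only _a_at probe set, of H1-6, was not called. By level, 18 of 26 probe sets with a mean log2 intensity of at least 7 were called higher with 5-NA (median 1.13), 13 of 35 between 5 and 7 (median 0.26) and 4 of 10 under 5 (median 0.13). The mean that sets the level takes in the 5-NA arrays, so a rise with 5-NA itself lifts it. The background shares cover probe sets of every type and level. Shares by type or by level over the whole array were not computed, so whether other genes differ likewise was not tested. Cross-matching probe sets can repeat 1 signal, so the 71 probe sets are not 71 separate measurements. The values given above for H2AC6, H2BC5, H2BC6, H2BC9, H2BC12L, H2BC21, H3C2 and the first probe set of H4C8 come from _s_at or _x_at probe sets. With 1 probe set for each of the 45 genes named alone, 22 were called higher with 5-NA and 11 with CBU-028.

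**Figure D4:**
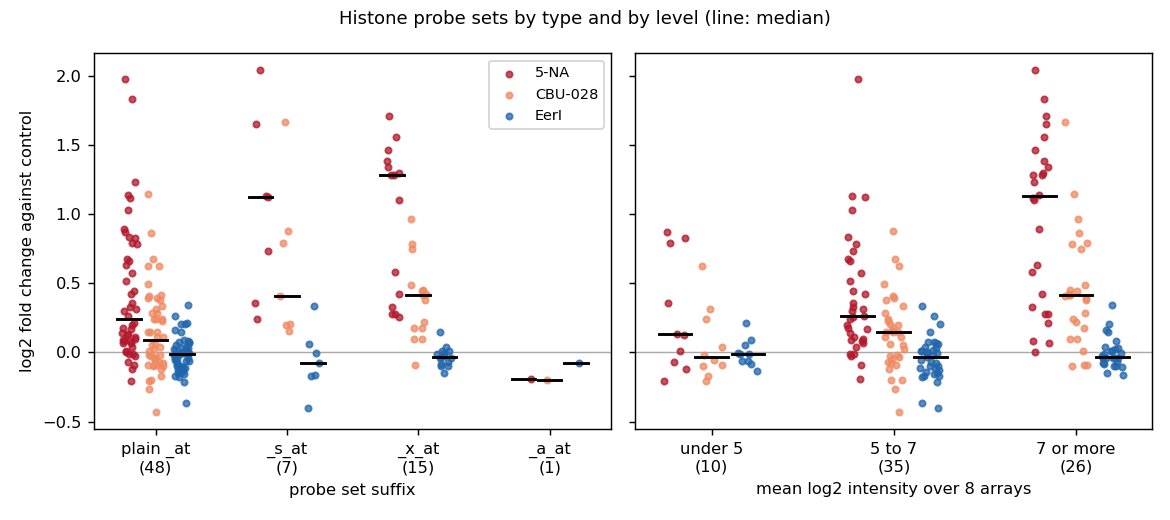
Log2 fold change against control (vertical axis) of the 71 histone probe sets with 5-NA, CBU-028 and EerI, by probe set suffix (left) and by mean log2 intensity over the 8 arrays (right); black lines are medians. The 5-NA median is 0.24 for the 48 plain _at and 1.13 for the 26 probe sets at 7 or more.

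Control probe sets of the arrays also differed between the groups. The probe set for the 5' end of 28S ribosomal RNA had 14.02 and 14.04 with 5-NA, 12.89 and 13.11 with CBU-028, 12.95 and 12.93 with EerI, and 12.66 and 12.62 in control, log2 fold changes of 1.39 with 5-NA and 0.36 with CBU-028, both called. The probe set for the 3' end of 18S ribosomal RNA had 12.63 and 12.83 with 5-NA, 12.86 and 12.45 with CBU-028, 11.92 and 12.07 with EerI, and 11.68 and 11.68 in control. That for the 3' end of 28S had 7.41 and 7.56 with 5-NA, 7.22 and 7.22 with CBU-028, 7.16 and 7.26 with EerI, and 7.33 and 7.34 in control. On the 5' 18S probe set the log2 fold changes were 0.52 with 5-NA and 0.59 with CBU-028, neither called. The middle 18S probe set gave 0.69 and 0.66, both called. On the middle 28S probe set they were 1.215 with 5-NA, called, and 0.36 with CBU-028, not called. Ribosomal RNA, which has no poly(A) tail, was thus highest with 5-NA on the 5' 28S probe set, and with 5-NA and CBU-028 on the 3' 18S probe set. Its part in the histone results was not tested. The difference of the 3' and 5' probe sets of ACTB was 0.178 and 0.363 with 5-NA, 0.0743 and 0.196 with CBU-028, 0.138 and 0.180 with EerI, and 0.148 and 0.130 in control, and its part was not tested either.

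The 8 markers listed for 293T cells lay between 6.58 and 13.77 (median 9.73), with NEFL at 13.13 to 13.63 and VIM at 13.66 to 13.77. PAX2 lay at 6.58 to 6.95 and CDH2 at 7.82 to 7.995, levels that some markers of other cell types also reached, such as COL1A1 at 8.75 to 9.36. Called with 5-NA were NEFL (-0.41), INA (0.31) and KRT8 (0.29). Measured markers ranged over 4.4 to 7.68 for blood cells (4 genes), 4.67 to 9.36 for fibroblasts (5 genes) and 4.75 to 7.99 for hepatocytes (3 genes). Of these 12 markers, 1 was called with 5-NA: CD14 had 6.92 and 6.89 with 5-NA, 6.08 and 6.34 with CBU-028, 5.83 and 6.16 with EerI, and 5.89 and 5.80 in control. Of the blood cell list, PTPRC, a marker of white blood cells, stayed between 4.4 and 4.86 and HBB between 7.38 and 7.68. The part of CD14 in the histone results was not tested.

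Genes that act on histone mRNAs and in S phase moved in both directions with 5-NA. Of 14 measured genes for transcription and end processing of histone mRNAs, 7 rose and 4 fell with 5-NA, 3 rose with CBU-028 and 1 rose with EerI. ZNF473, a zinc finger protein of the U7 small nuclear RNP complex, had 9.74 and 9.58 with 5-NA, 10.00 and 10.00 with CBU-028, 9.20 and 9.16 with EerI, and 8.51 and 8.51 in control. It was above control in all 6 treated arrays, by 1.15 with 5-NA, 1.49 with CBU-028 and 0.67 with EerI (adjusted p = 0.0112), and it was lower with 5-NA than with CBU-028 (difference -0.34, adjusted p = 0.0338). The EerI call was lost without either EerI or either control array. UPF1, a helicase needed for the decay of histone mRNAs, rose by 0.83 with 5-NA. NPAT, the coactivator of histone gene transcription, rose by 0.49 with 5-NA, and SLBP by 0.33. LSM10, a subunit of the U7 small nuclear RNP, and CPSF2, a subunit of the cutting complex, had log2 fold changes of -0.62 and -0.61 with 5-NA, both called.

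Of 20 S phase genes, 6 rose and 4 fell with 5-NA, 2 rose and 1 fell with CBU-028, and none was called with EerI. SLBP is on this list and on the list before it, and counts in both among the genes that rose with 5-NA. CCNE2 (0.92) and CCNE1 (0.86), the E cyclins that drive entry into S phase, rose with 5-NA. So did CDC6 (0.82) and CDT1 (0.76), which license replication origins, and CDT1 also rose with CBU-028 (0.62). The 4 that fell with 5-NA were MCM7 (-0.51), MCM6 (-0.34), MCM2 (-0.33) and CDC45 (-0.31), and the median of the list was -0.08. Of 9 measured variant histones, whose genes lie outside the clusters, H2AX (0.61), H3-3A (0.48) and H2AJ (0.43) rose and CENPA, the histone H3 of centromeres, fell by 0.65 with 5-NA. Of 17 histone chaperones, 1 rose and 2 fell with 5-NA, close to the shares of all probe sets (7.32% higher and 7.9% lower). ASF1A rose (0.53), and RBBP4 (-0.66) and DAXX (-0.31) fell. RBBP4 had 12.13 and 11.59 with 5-NA (limma adjusted p = 0.0456). Of 11 genes for poly(A) addition, FIP1L1 (0.61), PAPOLG (0.43) and CSTF3 (0.31) rose with 5-NA, and 2 rose with CBU-028. The background share of each comparison is that given for the histone probe sets. It covers probe sets of every level, while each listed gene was read by its probe set of highest mean, so the sets are unlike.

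**Figure D5:**
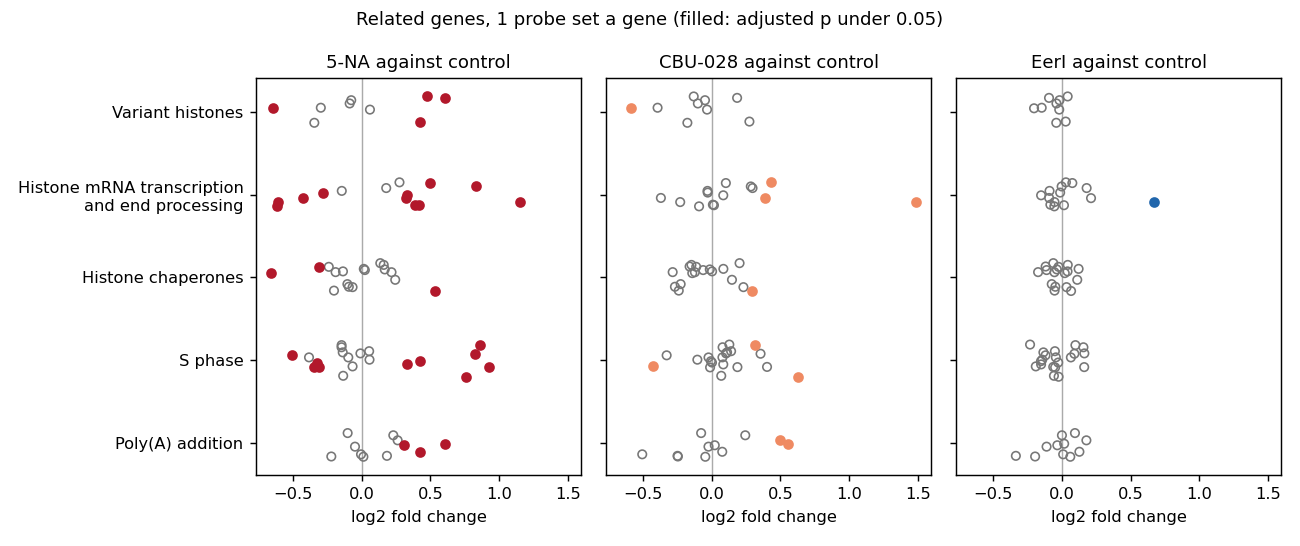
Log2 fold change against control (horizontal axis) of genes related to histones, 1 probe set a gene, in 5 lists, for 5-NA, CBU-028 and EerI. Filled points passed an adjusted p of 0.05: ZNF473 is the single filled point with EerI, at 0.67, and the S phase list holds filled points on both sides of 0 with 5-NA, 6 above and 4 below.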

How the data were processed

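RNA of 8 samples of 293T cells was measured on Affymetrix arrays. The authors made the deposited log2 values with RMA (background correction, quantile normalization of all arrays, 1 summary value a probe set); the labels also name Partek, without versions. The methods name another array design of the same maker, while the probe set identifiers are those of HG-U133 Plus 2.0. RMA fixes the overall distribution, so a shift of all RNAs together would not be seen; array medians lay between 6.89 and 6.93.

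Symbols came from the platform annotation (41097 probe sets with 1 symbol, 1801 with several, 11777 with none). A model with 4 group means was fitted by limma 3.58.1 (R 4.3.3) to the 8 arrays together (4 residual and 5.08 prior degrees of freedom, median SE 0.099), and p-values had Benjamini-Hochberg adjustment across the 54675 probe sets, within each comparison. A probe set was called at an adjusted p under 0.05. The fit was tested on simulated data. With 2 arrays against 2, an exact permutation test cannot go below p = 0.333, so none was made. The spread of the groups is pooled; the median absolute difference of duplicates over all probe sets was 0.138 for CBU-028 and 0.0738 for control. The number of arrays limits the precision.

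The histone genes, the related lists and the tests were chosen with earlier results of these data known. Named were, per class, up to 4 single-gene probe sets of largest change called with 5-NA and up to 2 of highest level not called, the 8 of smallest adjusted p with CBU-028, the 6 of largest difference per pair of compounds, up to 4 probe sets of several genes, and up to 4 called genes of each related list; other histone probe sets and NPAT and SLBP were named after their values were seen. The S phase genes that fell were also named after their values were seen. Chromosomes from RefSeq stood in for the clusters of the older symbols. Alternatives were the analysis of variance of the methods, fold thresholds, filters on level, suffix and annotation, 2 other normalizations, a replicate block, fits of 2 groups alone, a variance trend and leaving out each array. The replicate numbers did not pair the samples.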

Additional observations from a re-analysis of the deposited data

How the results depend on the processing

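None of the 89 calls of named probe sets changed sign under any alternative, and EerI against control gave 0 calls in every setting. Changes of sign among probe sets that were not called were not counted. The analysis of variance of the methods, adjusted, called 20 histone probe sets higher with 5-NA and 7 with CBU-028 against control, 22 for 5-NA against EerI, 11 for 5-NA against CBU-028 and 0 for CBU-028 against EerI; at an unadjusted p and 2-fold it called 19, 2, 17, 3 and 1. With plain _at probe sets only, the counts were 19, 9, 22, 12 and 5 of 48 (medians 0.24, 0.088, 0.29, 0.17 and 0.10), and with 1 probe set a gene 22, 11, 23, 13 and 9 of 45. At a mean of at least 7 they were 18 of 26 for 5-NA against control and 19 for 5-NA against EerI, with medians of 1.13, 0.41, 1.17, 0.37 and 0.43 in the same order; at a mean of at least 5 the medians of 5-NA were 0.42 against control and 0.57 against EerI. At 1.5-fold, CBU-028 kept 11 higher against control and 9 against EerI, and with 2 groups alone 12 and 1. With 1 annotated gene only, 14 were higher for 5-NA against CBU-028 and 10 for CBU-028 against EerI. The median against EerI was 0.36 for 5-NA and 0.15 for CBU-028 with 1 annotated gene, and 0.36 and 0.12 with 1 probe set a gene. The 1 lower call with CBU-028 was 0 under both forms of the analysis of variance, at 1.5-fold, at a mean of at least 7 and with 2 groups alone. The causes were not tested, beyond the smaller number of probe sets or arrays that a setting leaves.

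Leaving out 1 array gave 28 to 38 higher with 5-NA and 8 to 18 with CBU-028 against control, 0 to 0 with EerI, 26 to 40 for 5-NA against EerI, 16 to 27 for 5-NA against CBU-028 and 0 to 17 for CBU-028 against EerI; lower calls ranged over 0 to 3 for CBU-028 against control and 0 to 2 against EerI, and were 0 otherwise. Medians ranged over 0.36 to 0.46 (5-NA), 0.12 to 0.26 (CBU-028) and -0.06 to -0.01 (EerI) against control, 0.46 to 0.54 for 5-NA against EerI, 0.19 to 0.26 for 5-NA against CBU-028 and 0.13 to 0.23 for CBU-028 against EerI. A lone array was taken to vary like the other groups.

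With the replicate number as a block, 37 probe sets were higher with 5-NA and 21 with CBU-028 against control, 39 for 5-NA against EerI, 22 for 5-NA against CBU-028 and 14 for CBU-028 against EerI. The duplicates' deviations correlated at -0.15 to 0.15 between groups, so the numbers are not a pairing. The block lost 1 of 89 calls of named probe sets, the analysis of variance 45 and fits of 2 groups alone 18.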
